A study of Mus musculus with 6 samples.

Results

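The 100 features described here were lower in Avp+, Vip+ and extra-SCN neurons of the dissected mouse suprachiasmatic nucleus (SCN) at postnatal day (PND) 30 than in its neurons at gestational day (GD) 17.5. They were chosen by those values. UMIs, the molecule counts of single-nuclei RNA sequencing (snRNA-seq), were summed per cluster over a stage and scaled to a common total (CPM). Of 32285 features in the count matrices, 3437 had 50 CPM or more in both early SCN neurons and Vip+ neurons at GD17.5. Among these, the 100 with the largest ratio of the lower GD17.5 level over the highest PND30 level of Avp+, Vip+ and extra-SCN neurons were taken, with 5 CPM added to each level. The features carry no gene names in the files used here, so they are called feature 1 to feature 100 by their rank in this ratio, and neither their functions nor the marker genes of the clusters could be checked.

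The nuclei came from micro-dissected SCN of untreated wild-type C57BL6/J mice at 4 stages. GD17.5 and PND2 each had 1 library, and PND10 and PND30 each had 2. At each stage, tissue of 10 animals from at least 5 mothers was pooled, with 1 male and 1 female per mother, so no value belongs to a single animal. Library preparation was repeated for PND10 and PND30, and replicates may share a pool, in which case their spread covers technical variation only. Clusters are the annotation deposited by the authors, and "early SCN neurons" is its name for a cluster found before the mature neuronal types are abundant.

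The SCN is the central circadian clock of mammals. Its neurons are born before birth and then acquire their neuropeptide identities, synapses and light input over the first weeks of life. Vip+ neurons, which make vasoactive intestinal peptide, receive light input from the retina, and Avp+ neurons make arginine vasopressin. In maturing neurons in general, genes for growth, migration and differentiation tend to be lowered while those for transmission rise. NG2 cells, the oligodendrocyte precursor cells (OPCs), and astrocytes mature over the same weeks in the same tissue.

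The libraries held 771 to 5555 annotated nuclei each, with a median of 3144 to 12106 UMIs per nucleus. Vip+ neurons were the only SCN neuron type with at least 100 nuclei at every stage, with 236 nuclei at GD17.5 and 1262 at PND2, with 130 and 859 nuclei in replicates 1 and 2 of PND10, and with 109 and 871 nuclei in those of PND30. Their median depth was 4588 UMIs per nucleus for GD17.5 and 4653.5 for PND2, then 8080.5 and 4372 for PND10 and 13026 and 3397 for PND30, so replicate 1 of both later stages was deeper than all other libraries. Between any pair of libraries, 0 to 9 annotated nuclei had a barcode that also occurred in the other.

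The ratio used in the choice was 2.07 at the median of the 100 features and ran from 1.70 to 9.11. Their lower GD17.5 level was 133 CPM at the median, with a range of 50.8 to 2555 CPM, and their highest PND30 level was 54.5 CPM at the median. The list has no natural edge: the ratio was 1.708, 1.702 and 1.699 for features 98, 99 and 100, and 1.697, 1.693 and 1.693 for the next 3 features, which were left out. Feature 98 had 151 CPM in Vip+ neurons at GD17.5, and feature 101, just outside, had 145 CPM. These values made the list, and the fall from GD17.5 to PND30 in these neurons is given below as a description with no test. PND2, PND10 and all glial clusters played no part in the choice.

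Feature 1 had the largest ratio. In Vip+ neurons it stood at 357 CPM at GD17.5 and 306 CPM at PND2, at 159 and 175 CPM in the 2 libraries of PND10, and at 26.2 and 35.5 CPM in those of PND30. Feature 2 was at 256 CPM at GD17.5, 403 CPM at PND2, 163 and 235 CPM at PND10, and 14.9 and 23.1 CPM at PND30. Feature 1 was thus ordered by age, whereas feature 2 was higher at PND2 than at GD17.5, with exact Poisson intervals of counting error (95%) of 388 to 419 and 229 to 285 CPM that did not overlap. Feature 3 held 470, 414, 217 and 145, and 51.9 and 54.7 CPM in the same order of libraries.

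Features 4 and 5 had another course. Feature 4 was in Vip+ neurons at 62.2 CPM at GD17.5 and 22.3 CPM at PND2, stood at 3.30 and 10.5 CPM at PND10, and at 5.96 and 4.44 CPM at PND30. Feature 5 went from 147 CPM at GD17.5 to 26.7 CPM at PND2 and then held 17.3 and 16.3 CPM at PND10 and 19.7 and 25.7 CPM at PND30. Most of the drop of feature 5 thus lay between GD17.5 and PND2, and its 5 later libraries stayed within 16.3 to 26.7 CPM. In early SCN neurons, the same 2 features dropped from 91.5 to 6.55 CPM and from 152 to 16.6 CPM between GD17.5 and PND2. Each of these 4 drops rests on 1 library per stage and on a GD17.5 value that the choice used.

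**Figure D1:**
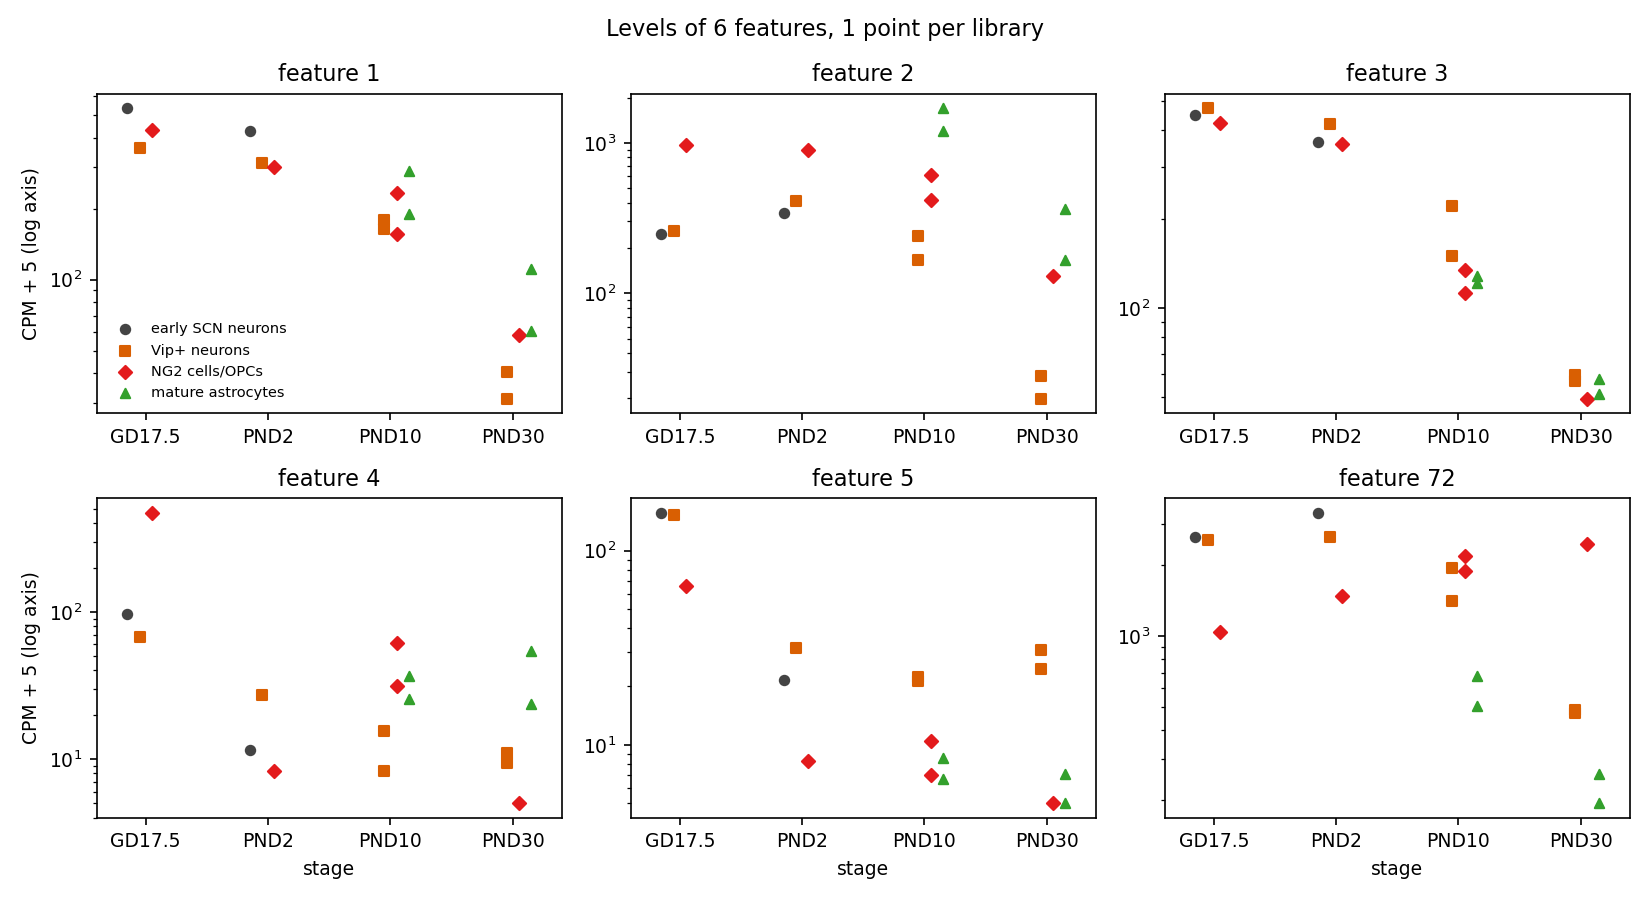
Levels of features 1 to 5 and 72 (CPM plus 5, log axis) against stage, with 1 point per library in early SCN neurons, Vip+ neurons, NG2 cells/OPCs and mature astrocytes. Features 1 and 3 are lower at PND30 than at every earlier stage in these clusters, feature 5 is already low at PND2, and feature 72 is at 2463 CPM in NG2 cells/OPCs of PND30, where Vip+ neurons are at 466 and 478 CPM.

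Taken as a group, the 100 features held a smaller share of UMIs at each later stage. In Vip+ neurons they held 2.02% of UMIs at GD17.5 and 1.81% at PND2, with Clopper-Pearson intervals (95%, counting error only) of 2.00% to 2.05% and 1.80% to 1.82%. At PND10 the share was 1.25% ± 0.0056 (SD, n = 2), and at PND30 it was 0.683% ± 0.058 (SD, n = 2 libraries). Neither PND10 library reached the PND2 library, and neither PND30 library reached those of PND10. In early SCN neurons the share was 2.36% at GD17.5 and 2.01% at PND2. Avp+ neurons, too few to be summed at GD17.5, had a share of 1.76% at PND2, of 1.10% ± 0.028 at PND10 and of 0.683% ± 0.0074 at PND30 (SD, n = 2 for both later stages).

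Extra-SCN neurons held 1.41% ± 0.16 at PND10 and 0.776% ± 0.10 at PND30 (SD, n = 2 for both). Cck+ and Nms+ neurons were not used in the choice. Cck+ neurons held 0.902% ± 0.033 (SD, n = 2) at PND30, and Nms+ neurons 0.943% in the 1 library with enough nuclei. Both shares lay above those of Vip+ neurons at PND30, which the choice made low. Feature by feature, however, the levels were close: the median log2 ratio over Vip+ neurons was 0.04 for Cck+ neurons and -0.07 for Nms+ neurons. Over all 3437 features eligible for the choice it was 0.0071 and -0.08.

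**Figure D2:**
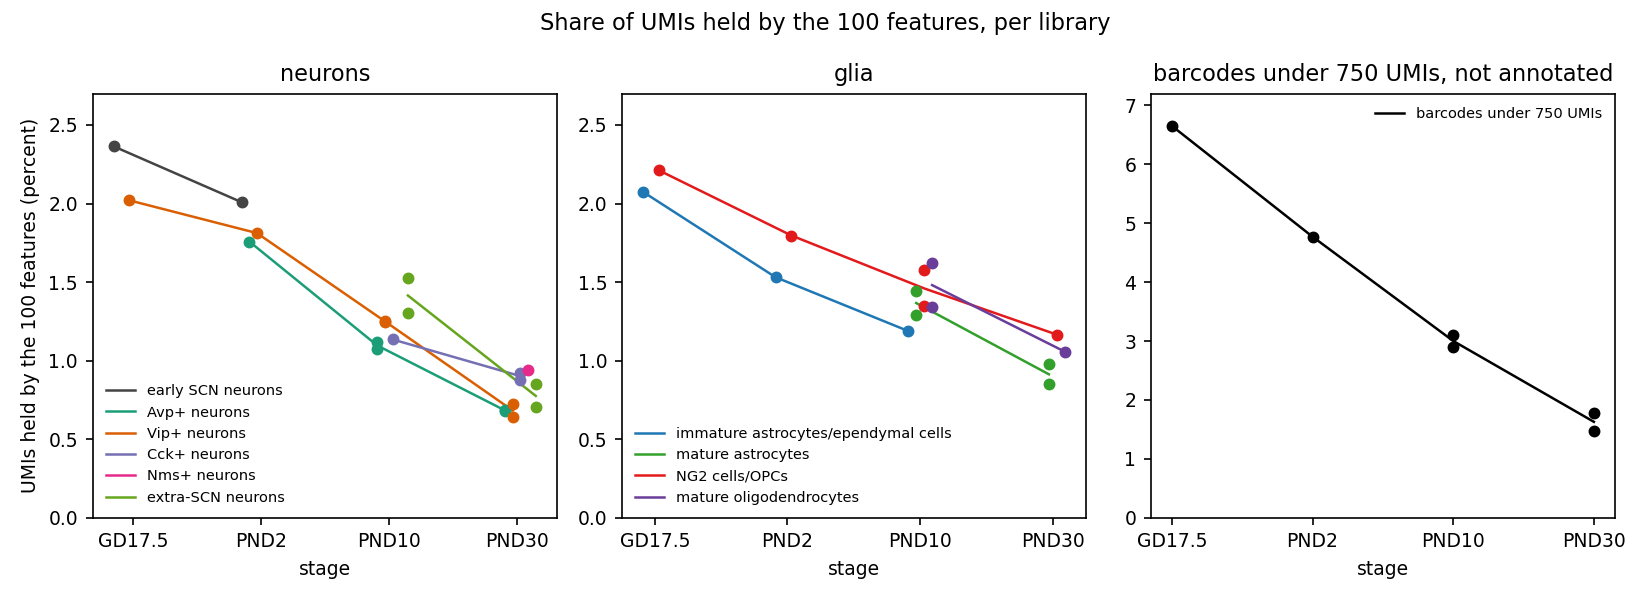
Percent of UMIs held by the 100 features against stage in neuronal clusters, in glial clusters and in barcodes under 750 UMIs, which the authors did not annotate (its axis is longer). Points are libraries with at least 20 nuclei and lines join the stage means; the share is lower at each later stage in each cluster drawn, and runs from 6.65% to 1.48% in the barcodes under 750 UMIs.

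The share varied with depth within a library. In early SCN neurons of the GD17.5 library, it was 2.74% in nuclei of 750 to 1500 UMIs, 2.77% at 1500 to 3000 UMIs, 2.52% at 3000 to 6000 UMIs and 2.22% at 12000 UMIs or more. In those of the PND2 library it was 2.11%, 2.33%, 2.06% and 1.94% in the same ranges, so it was lower in the deepest than in the shallowest nuclei of both libraries without an even decline. In Vip+ neurons it was lower in each deeper range. At GD17.5 it was 2.34%, 2.20% and 1.86% there at 1500 to 3000, 3000 to 6000 and 6000 to 12000 UMIs. In the same ranges it was 2.16%, 1.90% and 1.67% at PND2 and 0.828%, 0.709% and 0.647% in replicate 2 of PND30. In barcodes under 750 UMIs it was 6.65% in the GD17.5 library, 4.77% in the PND2 library, 2.89% and 3.11% for replicates 1 and 2 of PND10, and 1.78% and 1.48% for PND30. At GD17.5, 48 of the 100 features were at least 2-fold higher in these barcodes than in early SCN neurons, beside 484 of the 3437 eligible features (14.1%). Of the 100, 32 were lower there, beside 66.1% of eligible features. The part of such RNA in the results below was not tested.

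Nuclei of matched depth gave the same order of stages. Among Vip+ neurons of 3000 to 6000 UMIs, the 100 features held 2.20% of UMIs at GD17.5 and 1.90% at PND2, then 1.33% and 1.27% in replicates 1 and 2 of PND10 and 0.709% in replicate 2 of PND30, where replicate 1 had 6 such nuclei and is not given. The decline ran through the whole distribution of nuclei. The 10th percentile of these GD17.5 nuclei was a share of 1.59%. Of the PND2 nuclei 27.9% (195 of 699) lay below it, of the PND10 nuclei 82.9% (29 of 35) and 83.6% (361 of 432), and of the nuclei in replicate 2 of PND30 99.5% (377 of 379). Nuclei of 1 library are no replicates of a stage, so these shares carry no test.

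**Figure D3:**
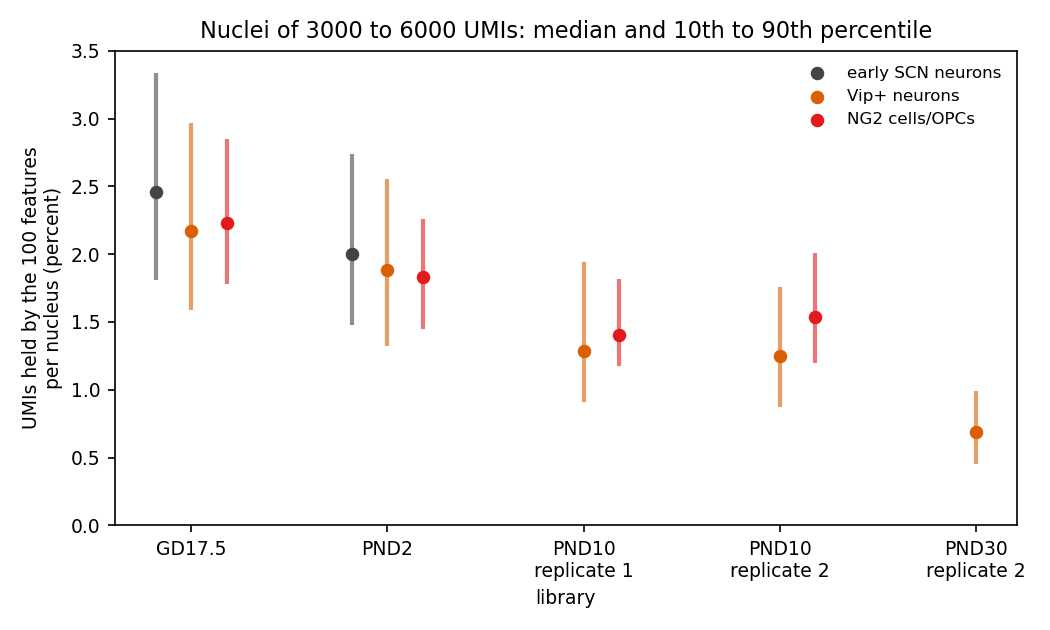
Percent of UMIs held by the 100 features per nucleus, in nuclei of 3000 to 6000 UMIs, for early SCN neurons, Vip+ neurons and NG2 cells/OPCs of each library with at least 20 such nuclei. Points are medians and bars run from the 10th to the 90th percentile; for Vip+ neurons the median is 2.17% at GD17.5 and 0.687% in replicate 2 of PND30.

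The features did not all reach 50% of their fall by the same stage, in levels that rest on 1 library each for GD17.5 and PND2. For each feature, the log2 fall from GD17.5 to PND30 in Vip+ neurons was set to 100%, and the part of it reached by PND2 and by each PND10 library was read off. At the median 25.9% of the fall was reached by PND2 and 56.9% by PND10. For 17 features at least 50% was reached by PND2. For 36 it was passed between PND2 and PND10 in both PND10 libraries, for 28 both PND10 libraries were still short of it, and for 19 the 2 PND10 libraries were on different sides. Without replicate 2 of PND30, 11 features instead of 17 were in the first class, since each class depends on where the PND30 level is set. With nuclei thinned to 1500 UMIs, 27 instead of 19 had PND10 libraries on different sides. Counting error was not carried into the classes, so a spread in timing is not separated from noise.

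The class passing its midpoint before PND2 fell 2.11-fold from GD17.5 to PND30 at the median. Feature 16 of this class had 210 CPM at GD17.5, 120 CPM at PND2, 93.2 and 60.7 CPM at PND10, and 77.5 and 64.8 CPM at PND30. Feature 34 had 163, 77.2, 48.7 and 63.7, and 42.9 and 51.2 CPM. Both were nearly level from PND10 on, with overlapping PND10 and PND30 libraries for each. Feature 94 was at 196 and 130 CPM at GD17.5 and PND2, at 131 and 151 CPM at PND10 and at 80.5 and 121 CPM at PND30, so both PND10 libraries lay above PND2 and both PND30 libraries below it.

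In the class that passed it between PND2 and PND10, the median fall was 2.15-fold. Feature 48 had 517 CPM at GD17.5, 343 CPM at PND2, 284 and 234 CPM at PND10, and 186 and 227 CPM at PND30. Feature 60 kept its level to PND2, with 296 and 275 CPM, and then had 191 and 184 CPM at PND10 and 190 and 130 CPM at PND30. Feature 49 had 253, 173, 161 and 140, and 88.8 and 127 CPM. For all 3, both PND10 libraries lay below the PND2 library.

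The class that was still short of it at PND10 fell most, 2.83-fold at the median. A lower PND30 level both enlarges the fall and moves its midpoint later, so this order is partly built into the classes. Feature 72 had 2555 CPM at GD17.5 and 2634 CPM at PND2, 1412 and 1938 CPM at PND10, and 466 and 478 CPM at PND30. Feature 15 had 711, 642, 527 and 554, and 193 and 262 CPM. Feature 65 was higher at PND2, with 590 CPM, than at GD17.5, with 467 CPM, and then had 409 and 355 CPM at PND10 and 174 and 196 CPM at PND30. In these 3 features, PND30 stood clear of all earlier libraries. Of the 19 features whose PND10 libraries were on different sides, feature 29 had 644 and 630 CPM at GD17.5 and PND2, 373 and 345 CPM at PND10 and 140 and 219 CPM at PND30, and feature 26 had 508, 435, 281 and 199, and 160 and 138 CPM.

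**Figure D4:**
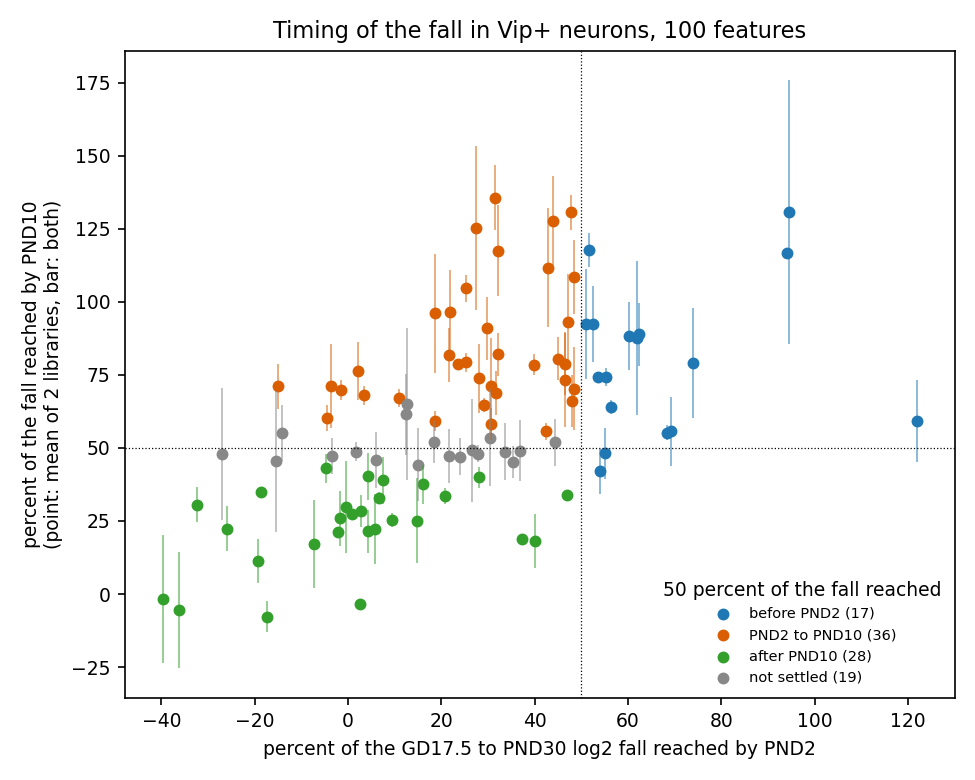
Percent of the log2 fall from GD17.5 to PND30 in Vip+ neurons that each of the 100 features had reached by PND10 (vertical; point, mean of 2 libraries; bar, both libraries) against that reached by PND2 (horizontal), colored by class with the number of features. The 17 features of the first class lie right of the 50% line, and the 28 of the late class below the horizontal 50% line; values under 0 are features that were above their GD17.5 level.

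The values of PND2 and PND10 did not enter the choice, but the step between them lies inside the fall that was chosen. An excess of features lower at PND10 is therefore partly expected from the choice, and the test bears on timing. Part of its spread comes from the PND30 libraries, which the choice used. Of the 100 features, 86 had both PND10 libraries below the PND2 library in Vip+ neurons, 8 had both above and 6 had the libraries on either side. Of the 3437 eligible features, 42.8% had both below and 35.6% both above. The median log2 change was -0.43, beside -0.02 for all eligible features, and was -0.44 and -0.52 for the PND10 libraries taken singly. The step before it, from GD17.5 to PND2, had a median log2 change of -0.30 in Vip+ neurons and -0.38 in early SCN neurons, beside -0.11 and -0.08 for all eligible features, and uses the GD17.5 values of the choice. With nuclei of 3000 to 6000 UMIs alone, the PND2 to PND10 median was -0.53.

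In the edgeR quasi-likelihood test on UMIs summed per library, 31 of the 100 features were lower at PND10 than at PND2 in Vip+ neurons and 0 were higher, at a Benjamini-Hochberg adjusted p under 0.05. The background was 2.69% of 14052 features called lower and 2.68% called higher, and 5.35% of the 3437 eligible features called lower. At an unadjusted p under 0.05, 50 of the 100 were lower and 1 was higher, beside 9.51% and 8.18% of all features. The 31 features were 1.52-fold to 4.26-fold lower, with a median of 1.96-fold. These calls rest on both PND10 libraries: with 1 of them left out, the comparison is 1 library against 1 and cannot support calls. The median log2 change was -0.49 and -0.47 without replicate 1 and without replicate 2 of PND10. Without replicate 1 and without replicate 2 of PND30, which also enter the spread, it was -0.42 and -0.43. DESeq2 called 12 of the 100 lower, beside 1.93% of the 6424 features to which it gave an adjusted p. With the PND2 and PND10 libraries alone, edgeR called 44 lower and 1 higher, beside 5.68% and 4.80% of all features.

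Among the called features, feature 3 fell from 414 CPM to 217 and 145 CPM (log2 fold change -1.20 ± 0.19, SE, adjusted p = 0.0019). Feature 1 changed by -0.84 ± 0.17 (SE, edgeR adjusted p = 0.011) and feature 2 by -0.97 ± 0.21 (SE, edgeR adjusted p = 0.015) on the log2 scale. Feature 58 fell from 76.8 CPM to 38.8 and 32.8 CPM (-1.11 ± 0.22, SE, edgeR adjusted p = 0.0079) and was at 40.5 and 49.7 CPM at PND30, so its PND30 libraries lay above both PND10 libraries. The largest change, picked out after its value was seen, was in feature 85, which fell from 64.9 CPM to 8.25 and 17.9 CPM (-2.09 ± 0.31, SE, edgeR adjusted p = 0.0013). Feature 72 (-0.63 ± 0.16, SE, edgeR adjusted p = 0.031) and feature 65 (-0.61 ± 0.15, SE, edgeR adjusted p = 0.030) were called as well, although most of their fall came after PND10. Feature 15 (-0.22 ± 0.17, SE, adjusted p = 0.56) and feature 94 (0.16 ± 0.22, SE, adjusted p = 0.79) did not pass the test.

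**Figure D5:**
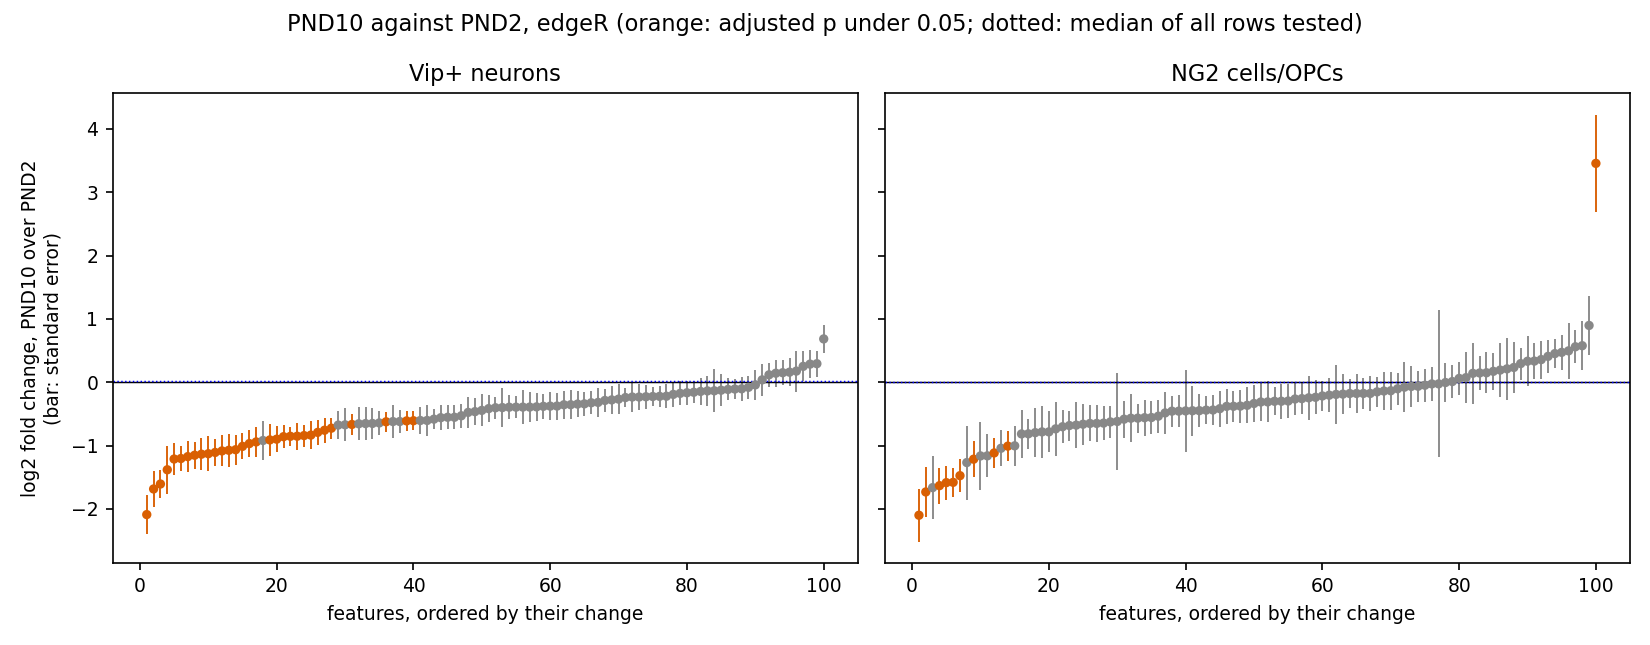
Log2 fold change from PND2 to PND10 of each of the 100 features, ordered by size, in Vip+ neurons and in NG2 cells/OPCs (edgeR; bars, standard error; orange, adjusted p under 0.05; dotted line, median of all features tested). In Vip+ neurons 31 features are called lower and 0 higher; in NG2 cells/OPCs 9 are called lower and 1, feature 4, higher.

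Glia carried the 100 features as well. At GD17.5 they held 2.21% of UMIs in NG2 cells/OPCs and 2.07% in immature astrocytes/ependymal cells, beside 2.36% in early SCN neurons. Feature by feature, the median log2 ratio over early SCN neurons was 0.04 in NG2 cells/OPCs and -0.05 in immature astrocytes/ependymal cells, beside -0.04 and 0.0042 for all eligible features. Neither sign is settled: with nuclei of 3000 to 6000 UMIs and with 50 features the median in NG2 cells/OPCs was -0.15 and -0.13, and with 200 features that in immature astrocytes/ependymal cells was 0.022. In NG2 cells/OPCs, 76 of the 100 were within 2-fold of early SCN neurons, 7 were higher and 17 lower. In immature astrocytes/ependymal cells the same counts were 79, 3 and 18. These counts are not given for all eligible features, so they do not set the 100 apart. With no limit on the fold, 48 of the 100 were lower in NG2 cells/OPCs than in early SCN neurons, beside 52.5% of eligible features. In immature astrocytes/ependymal cells 56 were lower, beside 49.7%. Each value is from 1 library, and the 100 were required to be at 50 CPM or more in neurons but not in glia.

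The features furthest above early SCN neurons in NG2 cells/OPCs at GD17.5 were feature 4, with 467 CPM against 91.5 CPM, feature 2, with 962 CPM against 242 CPM, and feature 80, with 214 CPM against 56.6 CPM. Those furthest below were feature 53, with 33.1 CPM against 175 CPM, feature 58, with 19.2 CPM against 98.4 CPM, and feature 50, with 36.6 CPM against 145 CPM. Features 50 and 58 were also lower in barcodes under 750 UMIs of this library, at 8.86 and 7.49 CPM, whereas features 2 and 4 were higher there, at 2208 and 562 CPM.

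The share was lower with age in the glia too. In NG2 cells/OPCs it was 2.21% at GD17.5, 1.80% at PND2, 1.46% ± 0.16 (SD, n = 2) at PND10 and 1.17% in the 1 PND30 library with at least 20 nuclei. In immature astrocytes/ependymal cells it was 2.07%, 1.53% and 1.19% at GD17.5, PND2 and PND10, with 1 library each. Mature astrocytes held 1.37% ± 0.11 at PND10 and 0.913% ± 0.091 at PND30 (SD, n = 2 for both), and the libraries of these stages did not overlap. Mature oligodendrocytes held 1.48% ± 0.20 (SD, n = 2) at PND10 and 1.06% in 1 library at PND30. At PND30 each glial cluster thus held a larger share than the 0.683% of Vip+ neurons, which the choice made low.

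From GD17.5 to PND2, the median log2 change of the 100 features was -0.30 in NG2 cells/OPCs and -0.41 in immature astrocytes/ependymal cells, with 75 and 87 features lower. For all eligible features the medians were -0.13 and -0.06, with 59.6% and 56.9% lower, from 1 library per stage. From PND2 to PND10 the median in NG2 cells/OPCs was -0.34, beside -0.04. There, 65 features had both PND10 libraries below PND2 and 17 had both above, beside 39.4% and 32.4% of eligible features. The edgeR test called 9 of the 100 lower and 1 higher at an adjusted p under 0.05, beside 1.42% of 10226 features called lower, 0.45% called higher, and 1.55% of the eligible features called lower. Without either PND10 library 0 of the 100 and 0 of all features were called lower. Without replicate 1 and replicate 2 of PND30, 14 of the 100 were called lower each time, beside 3.22% and 3.37% of all features, and DESeq2 called 0, beside 0.493% of its 4873 features with an adjusted p. At an unadjusted p under 0.05, 26 were lower and 2 higher, beside 7.25% and 4.59% of all features.

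The 9 features were 2.01-fold to 4.29-fold lower. Feature 3 fell in NG2 cells/OPCs from 354 CPM at PND2 to 108 and 129 CPM at PND10 (log2 fold change -1.58 ± 0.23, SE, edgeR adjusted p = 0.0021). Feature 26 went from 401 CPM to 192 and 210 CPM (-1.01 ± 0.24, SE, edgeR adjusted p = 0.038) and stood at 169 CPM in replicate 2 of PND30. Feature 25, picked out after its value was seen, went from 71.7 CPM to 9.14 and 21.5 CPM (-2.10 ± 0.41, SE, edgeR adjusted p = 0.017). In each of the 3, both PND10 libraries were below PND2 and below GD17.5.

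Feature 4 was the exception in NG2 cells/OPCs. It was at 467 CPM at GD17.5 (268 UMIs), at 3.26 CPM at PND2 (3 UMIs, exact Poisson interval 0.67 to 9.53 CPM), at 56.6 and 26.4 CPM at PND10, and had 0 UMIs in replicate 2 of PND30, which allows up to 26.7 CPM (3 counts of the total). It rose from PND2 to PND10 by 3.45 ± 0.77 (SE, edgeR adjusted p = 0.031) on the log2 scale, a fold that rests on the 3 UMIs of the PND2 library. Its level also varied between replicates elsewhere: extra-SCN neurons had 192 and 17.0 CPM in the 2 PND10 libraries, and barcodes under 750 UMIs had 94.9 and 437 CPM at PND10 and 1106 and 37.8 CPM at PND30. The level of feature 4 thus did not follow stage alone.

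The difference of the PND2 to PND10 change between Vip+ neurons and NG2 cells/OPCs was tested as an interaction. It was called for 2 of the 100 features, both with the more negative change in Vip+ neurons, beside 0.921% of 13575 features called in that direction and 1.11% in the other. For feature 4 the log2 difference was -4.79 ± 0.73 (SE, edgeR adjusted p = 3.7e-08), and for feature 72 it was -1.08 ± 0.28 (SE, edgeR adjusted p = 0.0075). Feature 72 had 1037 CPM at GD17.5 and 1477 CPM at PND2 in NG2 cells/OPCs, 1886 and 2196 CPM at PND10 and 2463 CPM in replicate 2 of PND30, so its levels there were ordered upward with age while those in Vip+ neurons went down after PND2. Its own change in NG2 cells/OPCs did not pass the test (0.45 ± 0.23, SE, edgeR adjusted p = 0.47). At an unadjusted p under 0.05, 10 features had the more negative change in Vip+ neurons and 7 in NG2 cells/OPCs, beside 4.02% and 4.51% of all features. The median log2 difference of the 100 features was -0.13 with all libraries, beside -0.018 over all features tested. Without replicate 1 of PND10 it was -0.18, beside -0.027. Without replicate 2 it was 0.0018, beside -0.03.

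From PND10 to PND30, glia could be tested with 2 libraries per stage, although their PND30 nuclei come from the same libraries as the PND30 neurons of the choice. In mature astrocytes, 60 of the 100 features had both PND30 libraries below both PND10 libraries and 4 had both above. The shares of eligible features were 32.6% and 12.9%. The median log2 change was -0.43, beside -0.11. Of the 97 features that passed the filter on low counts, 0 were called in either direction by edgeR at an adjusted p under 0.05, beside 0% of 12145 features called lower and 0.0165% called higher. At an unadjusted p under 0.05, 22 were lower and 2 higher, beside 4.49% and 4.76% of all features. DESeq2 called 6 lower and 1 higher, beside 0.603% and 0.899% of its 9790 features with an adjusted p. Without replicate 1 of PND30, edgeR called 2 lower, beside 0.145% of all features.

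In mature astrocytes, feature 2 went from 1203 and 1699 CPM at PND10 to 161 and 356 CPM at PND30 (log2 fold change -2.45 ± 0.44, SE, edgeR adjusted p = 0.20). Feature 72 went from 499.5 and 673 CPM to 190 and 254 CPM (-1.38 ± 0.25, SE, edgeR adjusted p = 0.21). Both features had PND30 libraries clear of those of PND10, and neither passed the edgeR test. Feature 65 was at 440 and 415 CPM at PND10 and at 480 and 448.5 CPM at PND30 (0.14 ± 0.15, SE, edgeR adjusted p = 0.86).

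In NG2 cells/OPCs, the PND30 libraries had 15 and 46 nuclei. From PND10 to PND30, 54 of the 100 features had both libraries lower and 8 both higher, beside 26.4% and 16.5% of eligible features. The edgeR test called 1 feature lower and 0 higher, beside 0.00978% of features called lower and 0.0196% called higher, so the 1 member called was the only feature called lower. It was feature 2, which went from 413 and 604 CPM to 125 CPM in replicate 2 of PND30 (-2.03 ± 0.30, SE, edgeR adjusted p = 0.022). Without either PND10 library 0 were called, and without replicate 1 and replicate 2 of PND30, 3 and 4 were called lower, beside 0.160% and 0.0495% of all features. At an unadjusted p under 0.05, 29 were lower and 3 higher, beside 4.43% and 3.11% of all features.

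The timing classes, set in Vip+ neurons, were then read in glia of the same libraries. The 28 late features had a median log2 change from PND10 to PND30 of -0.79 in mature astrocytes and -0.93 in NG2 cells/OPCs of replicate 2. The 17 early features had -0.28 and -0.19, and the 36 features of the middle class -0.32 and -0.21. In mature oligodendrocytes of replicate 2 the late class did not stand apart, with -0.70 beside -0.75 for the early and -0.41 for the middle class. From GD17.5 to PND2 the order was turned around, with medians of -0.61 for the early, -0.47 for the middle and -0.17 for the late class in NG2 cells/OPCs, and of -0.58, -0.45 and -0.31 in immature astrocytes/ependymal cells. From PND2 to PND10, the step by which the middle class was set, that class did not lead in these clusters: the medians of the early, middle and late class were 0.05, -0.29 and -0.40 in NG2 cells/OPCs, and -0.28, -0.38 and -0.74 in immature astrocytes/ependymal cells of replicate 1. In microglia it did, with -0.21, -0.63 and -0.38. In barcodes under 750 UMIs of the same libraries, the GD17.5 to PND2 medians were -0.79, -0.51 and -0.38, and those from PND2 to PND10 -0.17, -0.66 and -0.64. The classes were made from the same libraries, so these medians are a description.

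The 48 features that were at least 2-fold higher in barcodes under 750 UMIs and the other 52 were both lower with age. From PND2 to PND10 in Vip+ neurons, the 48 had a median log2 change of -0.55, with 45 lower, and the 52 one of -0.39, with 46 lower. Of all eligible features, 53.9% were lower in that step. In NG2 cells/OPCs the medians of that step were -0.44 and -0.15, and in mature astrocytes from PND10 to PND30 they were -0.61 and -0.28. The order was the other way in immature astrocytes/ependymal cells of replicate 1 from PND2 to PND10, with -0.35 for the 48 and -0.50 for the 52, and in mature oligodendrocytes of replicate 2 from PND10 to PND30, with -0.43 and -0.68. The difference between the groups was not tested. From GD17.5 to PND2 in Vip+ neurons the order was turned around, with -0.16 for the 48 and -0.42 for the 52.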

How the data were processed

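Single nuclei of pooled SCN tissue were profiled with 10x Genomics 3' chemistry in 6 libraries. Per the labels and methods, the authors counted reads with Cell Ranger 5.0.1 on mm10, analysed nuclei with Seurat 4, and deposited raw UMI counts per matrix row and barcode, not normalized, with a table of 13 clusters for the nuclei kept after limits on UMIs (at least 750), genes (500 to 10000), mitochondrial and ribosomal reads and doublet score. The files used here pair no row with a name. Of 22796 annotated nuclei, 22790 were placed in a library by barcode; 5 had a barcode in both libraries of a stage and 1 in neither. Annotated nuclei per library held 10921890 to 31389145 UMIs.

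UMIs were summed per library and cluster and scaled to CPM, and log2 changes were taken of CPM plus 5. Sums of fewer than 20 nuclei were left out of levels and medians but kept in the tests. Sums were tested with edgeR 4.0.16 (TMM, filterByExpr, stage as a factor over all 6 libraries, or the 4 of PND10 and PND30 for mature astrocytes, glmQLFTest) in R 4.3.3, adjusted over all features tested and checked on simulated counts. The single PND2 library is assumed to vary like the stages with 2. DESeq2 1.42.0, no filter, scaling without the 100 features, lists of 50 and 200, leaving out each library of PND10 and PND30, and thinning nuclei to 1500 UMIs (Python 3.11.15) were alternatives. Replicate numbers, shared by only 2 stages, were not taken as pairs.

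Features named in the text are ranks 1 to 5, the 3 with the highest GD17.5 level in Vip+ neurons of each timing class, the 3 highest and 3 lowest in NG2 cells/OPCs relative to early SCN neurons at GD17.5, the 3 with the highest glial level at PND30, those called higher in glia, and those at the edge of the list; others are marked where they occur. The members, lists and tests were chosen with earlier results of these data known. Intervals cover counting error only.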

Additional observations from a re-analysis of the deposited data

Results flagged for a closer look

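For 2 of the 100 features the change from PND2 to PND10 differed between Vip+ neurons and NG2 cells/OPCs in the interaction test, with log2 differences of -4.79 for feature 4 and -1.08 for feature 72. Of all 13575 features tested, 0.921% were called in that direction and 1.11% in the other. The value of feature 4 rests on 3 UMIs in NG2 cells/OPCs at PND2.

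Barcodes under 750 UMIs, which are in the deposited matrices but not in the annotation, also held UMIs of the 100 features. The share was 6.65% in the GD17.5 library, 4.77% in the PND2 library, 2.89% and 3.11% for replicates 1 and 2 of PND10, and 1.78% and 1.48% for PND30, above that of every annotated neuronal and glial cluster of the same library that had at least 20 nuclei. What these barcodes contain was not tested.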

How the results depend on the processing

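Of 160 values under alternative settings, 99 stayed within the limits set and 61 did not. The limits were 1.5 times for counts and 1 SD between libraries for medians and shares. Where a stage has 1 library, the SD of the PND2 to PND10 median stood in for medians. For the share of Vip+ neurons at PND2 the limit was 0.010 percentage points, from its counting error. That share could not change without a PND10 or PND30 library, and shares with 50 or 200 features had to change. DESeq2 called 12 and 0 features lower from PND2 to PND10 in Vip+ neurons and NG2 cells/OPCs, 6 in mature astrocytes from PND10 to PND30, and 1 in the interaction. Its shares called lower among features with an adjusted p were 1.93%, 0.493% and 0.603%, and in the interaction it called 17 of 13575 features lower. Without a filter, 8 and 10 were called lower from PND10 to PND30 in NG2 cells/OPCs and mature astrocytes, beside 0.145% and 0.579% of all features. In mature astrocytes 1 was called higher, beside 0.83%. Lists of 50 and 200 features gave 20 and 39 calls lower in Vip+ neurons, beside 2.69% of all features. In the interaction they gave 1 and 4, beside 0.921%. With 200 features, 3 and 1 were called higher, beside 2.68% and 1.11%. With 1 library left out, calls ranged over 0 to 45 in Vip+ neurons, beside 0% to 6.98% of all features called lower. In the 2 steps of NG2 cells/OPCs they ranged over 0 to 14 and 0 to 4, beside 0% to 3.37% and 0% to 0.16%. They ranged over 0 to 2 in mature astrocytes, beside 0% to 0.145%, and over 1 to 3 in the interaction, beside 0.585% to 1.12%. Without a PND10 library, the PND2 to PND10 step compares 1 library with 1 and cannot support calls. The share of all features called thus moved along with the calls among the 100. The cause was not tested.

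A block on the replicate number gave 32 features called lower in Vip+ neurons (3.62% of all features lower, 3.19% higher), 7 and 5 in the 2 steps of NG2 cells/OPCs (1.29% lower and 0.802% higher, then 0.225% and 0.401%), 12 in mature astrocytes (1.56% and 2.26%) and 4 in the interaction (0.70% and 0.692%); 1 and 1 were called higher in the first step of NG2 cells/OPCs and in mature astrocytes, and 2 in the interaction. Deviations of same-numbered libraries correlated at 0.07 in Vip+ neurons, 0.56 in mature astrocytes and 0.0063 in NG2 cells/OPCs, and the labels do not say that a number marks a shared batch.

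With 50 features, the median log2 changes were -0.32 and -0.22 from GD17.5 to PND2 in early SCN and Vip+ neurons and -0.58 from PND2 to PND10, the median over early SCN neurons was -0.13 in NG2 cells/OPCs, the shares were 0.945% and 0.630% in Vip+ neurons at PND2 and PND10 and 0.656% in NG2 cells/OPCs at PND10, and the early, middle and unsettled classes held 6, 15 and 10 features. With 200 features, the PND2 to PND10 median was -0.38, that of immature astrocytes/ependymal cells over early SCN neurons 0.022, the same shares 3.18%, 2.37% and 2.91%, and the classes 53, 68 and 37. A minimum of 100 CPM gave -0.32 and -0.22 for the 2 GD17.5 to PND2 medians and shares of 2.32%, 1.65% and 2.12%. Equal weights for the PND30 libraries in the choice gave 1.26% in Vip+ neurons at PND10. Thinning to 1500 UMIs gave a PND2 to PND10 median of -0.51 and shares of 1.89% and 1.31% in Vip+ neurons. Nuclei of 3000 to 6000 UMIs, an alternative chosen after seeing the data, gave -0.41 and -0.53 for the 2 steps in Vip+ neurons, shares of 1.90% and 1.30%, and medians over early SCN neurons of -0.15 in NG2 cells/OPCs and -0.13 in immature astrocytes/ependymal cells, so the sign in NG2 cells/OPCs is not settled. With 1 library left out, the PND2 to PND10 median ranged from -0.52 to -0.43, and the early, middle, late and unsettled classes from 11 to 20, 34 to 49, 28 to 41 and 0 to 18 features; 0 unsettled follows from having 1 PND10 library.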
